A study of Mus musculus with 56 samples.

Results

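The expression of 8 genes used as markers of folliculostellate cells and stem cells was examined in single cells (SCs) of the mouse pituitary. The genes were listed by name, with earlier results of these data known, and are *Sox2*, *Sox9*, *S100b*, *Cdh26*, *Anxa1*, *Aldh1a2*, *Krt8* and *Krt18*. All 8 were found among the 47069 gene identifiers of the table. The cells came from a primary culture of whole pituitaries of female C57BL/6 mice that were not synchronized in their cycle. The growth protocol in the labels gives their age as 10 to 12 weeks, while another label speaks of 3 weeks of cycling, and the labels do not settle how these fit together. Pituitaries of 5 mice were pooled per sample, and the dissociated cells were grown untreated for 4 days and then held in RNA-Best, a solution that keeps whole cells and their RNA intact until the assay. Cells were passed through a filter, captured on a Fluidigm C1 circuit made for small cells, and amplified with SMART-Seq v4. The data are 56 libraries, each labelled as a single cell and named here by its plate well. No label ties a well to an animal, so the 56 wells count as 1 sample, and no test was made.

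Folliculostellate cells are cells of the anterior pituitary that make no hormone. They form a network between the endocrine cells, are usually recognized by the calcium-binding protein S100b, and signal to their neighbours through secreted factors. The stem cells of the gland line the remnant of the pituitary cleft and are scattered through the lobe, carry the transcription factors Sox2 and Sox9, and share markers with folliculostellate cells. Keratins 8 and 18 form the filaments of simple epithelia and pair with each other in the filament.

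Levels are given as CPM, a gene's count scaled to 1000000 gene counts in the well, and a marker was taken as present at 10 CPM or more. The total of gene counts per well ran from 357 to 12563266 and the median was 711525. In the 10 wells that had fewer than 100000 a single count already reached 10 CPM. Wells B6 (357 counts) and H10 (1687 counts) were barely sequenced. C10 and C11 were close in gene counts (451717 and 453587) and in genes with a count (7324 and 7384). Their sums over 13 annexin and S100 family genes differed (18524 and 3164 CPM), and whether they held the same material was not tested. The hormone transcripts *Prl*, *Gh* and *Pomc* were at 10 CPM or more in all 56 wells. Intervals are exact Clopper-Pearson 95% intervals of the number of wells and cover counting error only.

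The defining markers were absent or nearly so. *Sox2* had no count in any well, *S100b* was found in a single well, and *Sox9* was present in 5 wells, none of which had *S100b*. By contrast *Krt18* was present in 46 wells and *Krt8* in 26. The wells described here are therefore called by the markers they carry, and none is named a folliculostellate or stem cell.

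*Sox2* (ENSMUSG00000074637.7, chromosome 3, 34650405 to 34652461, plus strand, protein coding), the factor that defines pituitary stem cells, was at 0 counts among 132709000 gene counts over the 56 wells. This was 0 of 56 wells, which allows a share of up to 5.36% of wells with a count if 3 wells are taken as the limit, and up to 6.38% by the exact interval. A floor of 3 counts corresponds to a median of 4.23 CPM over wells and lay at or under 10 CPM in 35 wells. In the remaining wells a level of 10 CPM stands for fewer than 3 counts and could be missed. *Sox2* lies inside *Sox2ot*, a long transcript on the same strand with which it shares no exon bases. *Sox2ot* had counts in 5 wells and reached 10 CPM in 2 of them, at 38.0 CPM (17 counts) in B3 and 11.2 CPM (27 counts) in H7. *Sox2* was at 0 in these wells too.

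*Sox9* (ENSMUSG00000000567.5, chromosome 11, 112782224 to 112787760, plus strand, protein coding) is a relative of *Sox2* that marks progenitors. It was present in 5 wells (8.93%, interval 2.96% to 19.6%), at 85.6 CPM in H3, 81.7 CPM in H9, 67.2 CPM in D2, 52.3 CPM in H2 and 35.0 CPM in G7. These 5 values rested on 61 to 871 counts, 871 in H9 and 61 in D2. A further 3 wells had *Sox9* above 0 and under the limit, E1 with 4.41 CPM (20 counts), B2 with 1.51 CPM (8 counts) and H12 with 1 count. No well had a measured *Sox9* level between 4.41 and 35.0 CPM, though in wells of low depth such a level could be missed. All 5 wells lay in plate columns 1 to 3 and 7 to 9 (5 of 29 wells, against 0 of 27 in columns 4 to 6 and 10 to 12), and wells of the first set were also the more deeply sequenced ones, at a median of 1050009 gene counts against 234987. The part of depth in this was not tested. As a background of detection, 38.4% of 21560 protein-coding genes were at 10 CPM or more in at least 5 wells.

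*S100b* (ENSMUSG00000033208.7, chromosome 10, 76253853 to 76261159, plus strand, protein coding) was present in B3 at 55.9 CPM, from 25 counts, and was at 0 in the other 55 wells (1.79% of wells, interval 0.0452% to 9.55%). Presence in 1 well or more was common among protein-coding genes, at 62.9%. *Cdh26* (ENSMUSG00000039155.15, chromosome 2, 178430531 to 178487366, plus strand, protein coding), a cadherin of the cell surface, was present in 4 wells (7.14%, interval 1.98% to 17.3%). Its levels were 176.5 CPM in B3 (79 counts), 125.1 CPM in H6 (25 counts), 50.6 CPM in H12 (189 counts) and 12.9 CPM in H7 (31 counts). One count in B12 was the only other trace of *Cdh26*, so a well had either this gene at 12.9 CPM or more or almost none of it.

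*Anxa1* (ENSMUSG00000024659.14, chromosome 19, 20373428 to 20390944, minus strand, protein coding) codes for annexin A1, a phospholipid-binding protein induced by glucocorticoids that folliculostellate cells release and that restrains ACTH release. It was present in 2 wells (3.57%), at 282.4 CPM in C1 (1933 counts) and 49.0 CPM in G7 (220 counts). In B3 it stood at 4.47 CPM on 2 counts, and C2 and G2 had 1 and 2 counts. C1 held the highest *Anxa1* and none of the other 7 markers at 10 CPM, with *Krt8* at 0.146 CPM and *Krt18* at 3.65 CPM.

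*Aldh1a2* (ENSMUSG00000013584.5, chromosome 9, 71215789 to 71296243, plus strand, protein coding), an enzyme that makes retinoic acid, was above 0 in 20 wells and present in 5 (8.93%). Its levels in these were 58.1 CPM in H12 (217 counts), 43.0 CPM in E9 (32 counts), 31.3 CPM in E6 (2 counts), 15.6 CPM in B3 (7 counts) and 11.5 CPM in D3 (3 counts). The value in E6 came from a well with 63944 gene counts, and with a minimum of 5 counts *Aldh1a2* remained in 3 wells, H12, E9 and B3. The remaining 15 wells lay between 0.220 and 6.64 CPM, each on 1 to 5 counts.

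**Figure D1:**
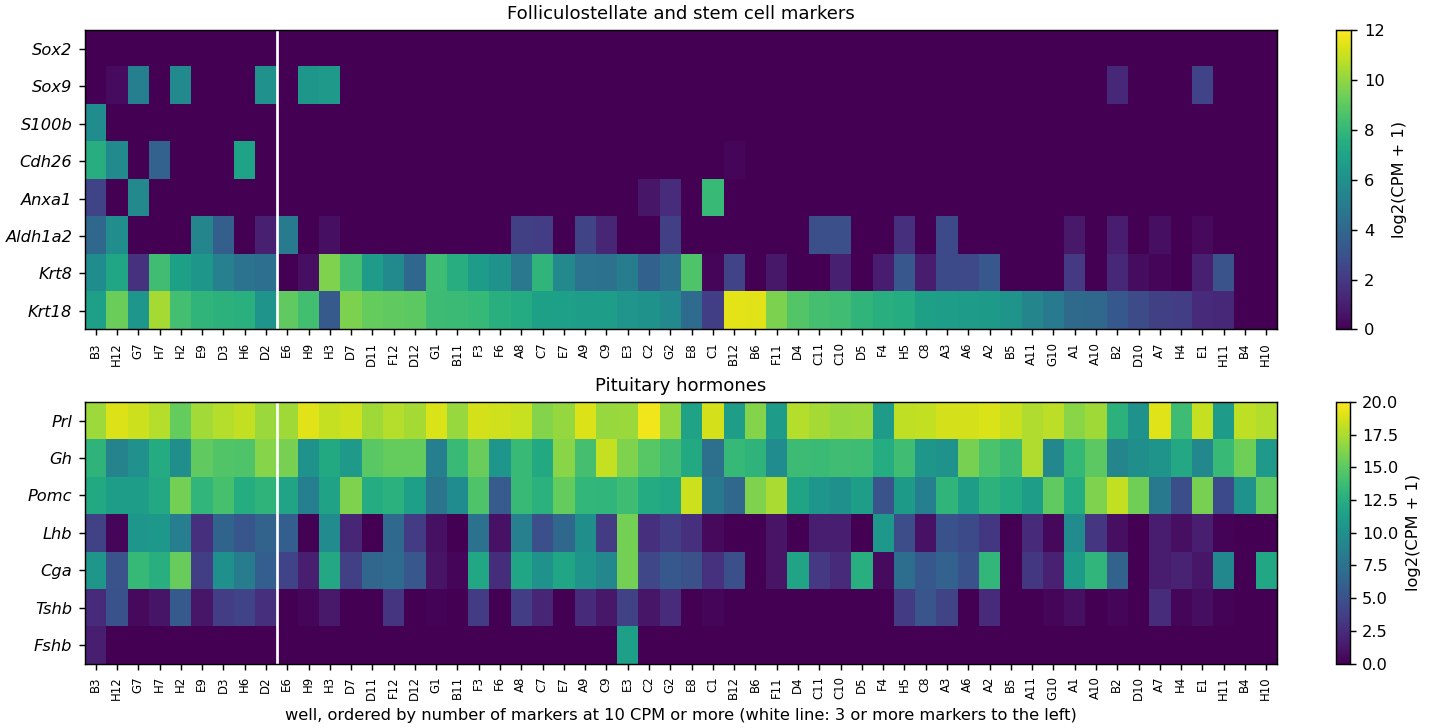
Heat maps of the 8 markers (upper panel) and of 7 hormone genes (lower panel) in each of the 56 wells, as log2(CPM + 1), with wells ordered by the number of markers at 10 CPM or more. The white line closes the 9 wells with 3 or more markers, the row of *Sox2* is at 0 throughout, *Krt18* is present in 46 wells, and *Prl* is high on both sides of the line.

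The keratins made up most of the marker signal. *Krt8* (ENSMUSG00000049382.9, chromosome 15, 101996698 to 102004482, minus strand, protein coding), a type II keratin, was present in 26 wells (46.4%, interval 33.0% to 60.3%), with a lowest level of 0, a median of 8.08 CPM and a highest level of 828.9 CPM in H3. *Krt18* (ENSMUSG00000023043.6, chromosome 15, 102028180 to 102032027, plus strand, protein coding), its type I partner, was present in 46 wells (82.1%, interval 69.6% to 91.1%), with a lowest level of 0, a median of 110.6 CPM and a highest level of 2877 CPM in B12 (20260.5 counts). The next value of *Krt18*, 2803 CPM in B6, rested on 1 count. Per exon length, in TPM, the median over wells was 6.20 for *Krt8* and 121 for *Krt18*. Such breadth was less usual than that of the other markers, since 11.8% of protein-coding genes were at 10 CPM or more in at least 26 wells and 3.6% in at least 46. *Krt8* was present in 19 of 29 wells of plate columns 1 to 3 and 7 to 9 and in 7 of 27 wells of the other columns, while *Krt18* was present in 24 and 22.

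The counts of *Krt8* were not whole numbers in 21 wells and those of *Krt18* in 8 wells, as estimated counts can be when a read is shared out. Whether reads were shared between features or between places in the genome is not given in the sources used here. A processed pseudogene, *Krt8-ps*, matched the transcript of *Krt8* over 941 bases at 98.6% identity, and *Gm5200* matched that of *Krt18* over 1269 bases at 90.2% identity. Neither has a row in the table. How reads of the keratins and of these copies were counted was not tested. *Krt8* also shares 101 exon bases with *Gm36026* on the opposite strand.

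Both keratins were present in 25 wells, *Krt8* alone in 1 (H3), *Krt18* alone in 21 and neither in 9. Of the wells with *Krt8*, 96.2% also had *Krt18*, against 82.1% of all wells. Of the wells with *Krt18*, 54.3% had *Krt8*. On the TPM scale *Krt18* was the higher of the pair in 50 wells and *Krt8* in 4. The ratio of their CPM was far from constant. Over the 44 wells in which both were above 0, the log2 ratio of *Krt8* to *Krt18* had a median of −2.48 and ran from −10.17 in F11 to 6.44 in H3. F11 had *Krt18* at 790.9 CPM beside *Krt8* at 0.686 CPM, and H9 had 333.0 and 0.422 CPM. At the other end H3 had *Krt8* at 828.9 CPM beside *Krt18* at 9.53 CPM, and E8 had 412.4 and 17.5 CPM. As a description over 54 wells that share culture and library preparation and differ in depth, Pearson's r of log2(CPM + 1) was 0.334 and Spearman's rho was 0.321, and r was 0.463 without H3 and E8. For *Krt8*, *Krt18* ranked 496 by r among 9468 genes compared, and *Krt8* ranked 798 for *Krt18*.

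**Figure D2:**
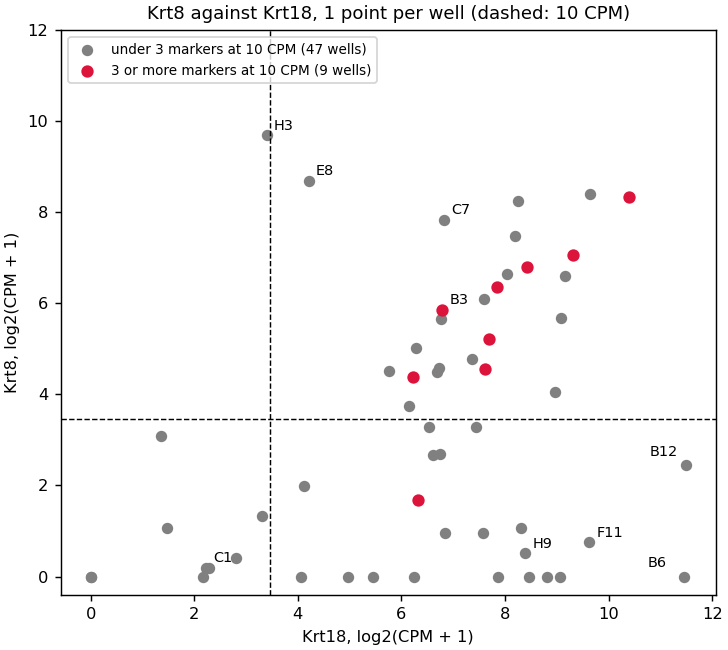
*Krt8* against *Krt18* in each of the 56 wells, both as log2(CPM + 1), with dashed lines at 10 CPM. The wells with 3 or more markers are in red, most points lie to the right of the vertical line, and H3 and E8 stand apart with high *Krt8* beside little *Krt18*.

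The 2 keratin genes are neighbours, 23697 bases apart on opposite strands of chromosome 15, with their starts facing each other. Promoter sequence, from the RefSeq promoter set on GRCm38.p6 up to the first annotated base of the gene, is shown for this pair because it was the pair of markers found together most often. It is chr15:102004483-102004592 on the minus strand for *Krt8* (110 bases) and chr15:102027966-102028179 on the plus strand for *Krt18* (214 bases). The set held a promoter for 7 of the 8 markers, all except *Sox9*. Capitals mark matches, on either strand, to the motifs CANNTG (the E-box), TTCCTG (held by many sites of Ets factors) and ACAAAG (held by many sites of Sox factors).

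Krt8: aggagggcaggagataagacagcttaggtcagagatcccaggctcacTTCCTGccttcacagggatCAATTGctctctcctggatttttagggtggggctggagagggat

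Krt18: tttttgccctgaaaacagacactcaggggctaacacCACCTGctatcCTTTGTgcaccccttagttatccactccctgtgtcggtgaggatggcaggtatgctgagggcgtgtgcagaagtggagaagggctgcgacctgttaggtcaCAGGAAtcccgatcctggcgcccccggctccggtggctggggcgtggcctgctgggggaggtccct

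Both windows held a match to the E-box and to the Ets letters, which were found in 39.0% and 11.8% of 32851 promoters cut to the length of the *Krt8* window and in 61.3% and 22.2% of those cut to the length of the *Krt18* window. The Sox letters matched in the *Krt18* window, as in 14.4% of promoters of that length, and not in the *Krt8* window. Neither window had a match to TATAAA (the TATA box), to GGGCGG (the GC box), to CCAAT (the box named by its letters), to TGANTCA (the AP-1 site) or to a second Sox motif, ACAATG.

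The number of markers per well was low. No marker was present in 8 wells, 1 in 19, 2 in 20, 3 in 7, 4 in 1 (H12) and 5 in 1 (B3). Thus 9 wells carried 3 or more (16.1%, interval 7.62% to 28.3%), and 7 of these were among the 29 wells of plate columns 1 to 3 and 7 to 9 (24.1%, interval 10.3% to 43.5%), against 2 of 27 wells (7.41%, interval 0.910% to 24.3%) in the other columns. By plate row, 4 of the 9 lay in row H, which held 10 wells. Part of the count followed from the keratins, as all 9 wells carried *Krt18* and 8 carried *Krt8*. Without the keratins, 43 wells had none of the other 6 markers, 10 had 1, 2 had 2 and 1 had 3, so markers other than keratins mostly occurred singly. The 2 wells with a pair were H12, with *Cdh26* and *Aldh1a2*, and G7, with *Sox9* and *Anxa1*. Near the limit, the third marker of D3 was *Aldh1a2* at 11.5 CPM and that of H7 was *Cdh26* at 12.9 CPM. Just outside were H3, with *Krt18* at 9.53 CPM, and A3, with *Krt8* at 5.44 CPM from 1 count.

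Some pairs never met. *Sox9* shared no well with *S100b*, *Cdh26* or *Aldh1a2* at 10 CPM and shared 1 with *Anxa1*. *Cdh26* was found together with both keratins in 4 of 4 wells and with *Aldh1a2* in B3 and H12. *Aldh1a2* had *Krt18* beside it in 5 of 5 wells. *Anxa1* had *Krt8* in neither of its wells. With 1 to 5 wells per marker these counts carry little weight. The 8 genes of other organs, listed as a background of detection, gave *Cyp7a1* in B3 at 189.9 CPM and *Myh6* in H3 at 24.1 CPM, and the other 6 were under 10 CPM in every well.

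Over all protein-coding genes the share at 10 CPM or more was 21% in B3, 23% in H12, 23% in H2, 15.9% in G7, 14.4% in D2, 27.1% in E9, 19.1% in D3, 6.62% in H7 and 22.4% in H6, and over the 56 wells it had a median of 15.7% (range 1.24% to 27.1%). E9 was thus the well with the largest share of all. H2, B3 and H12 ranked 1, 3 and 5 of the 56 wells by the number of genes with a count (12871, 11573 and 10815 genes). The part of this breadth in the number of markers was not tested.

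All 9 wells also carried hormone transcripts. *Prl* (prolactin) was the highest of *Prl*, *Gh* (growth hormone) and *Pomc* (the ACTH precursor) in 8 of the 9, and *Pomc* in H2. Together the 3 hormones took 14.7% of gene counts in B3, 51.0% in H12, 10.1% in H2, 37.0% in G7, 21.9% in D2, 19.8% in E9, 26.9% in D3, 23.9% in H7 and 32.2% in H6. Over the 56 wells this share ran from 0.759% to 81.0% with a median of 26.9%, and the 9 wells ranked from 5 (H12) to 50 (H2). None of the 9 was among the 5 wells with the lowest hormone share. Those 5 were F4 with 0.759%, B12 with 1.29%, H11 with 1.44%, H4 with 1.88% and D10 with 5.39%. None of them had any of the 6 markers other than keratins at 10 CPM, while F4 and B12 had *Krt18* at 188 and 2877 CPM. Since 43 of all 56 wells had none of the 6, and since H2 and B3 ranked 50 and 45 by hormone share, nothing is read from this.

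**Figure D3:**
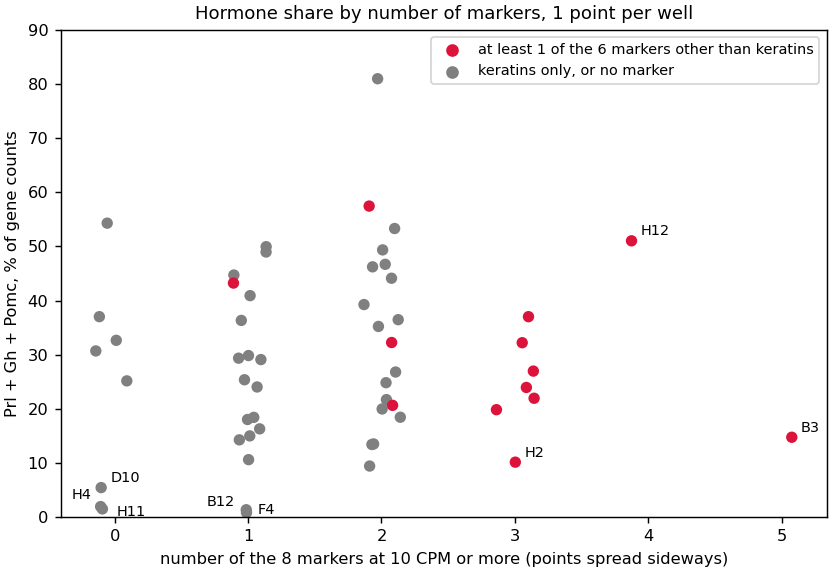
Share of gene counts taken by *Prl*, *Gh* and *Pomc* together (y axis, %) against the number of the 8 markers at 10 CPM or more (x axis), 1 point per well, red where at least 1 marker other than a keratin was present. Wells with 3 or more markers lie between 10.1% (H2) and 51.0% (H12), and the 5 wells with the lowest hormone share have 0 or 1 marker.

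H12, with 3733810 gene counts, carried *Krt18* at 633.0 CPM, *Krt8* at 131.9 CPM, *Aldh1a2* at 58.1 CPM and *Cdh26* at 50.6 CPM beside *Prl* at 507627 CPM, *Gh* at 498 CPM and *Pomc* at 2312 CPM. It was a *Prl*-rich well with the epithelial genes *Cdh1* (E-cadherin) at 11.8 CPM, *Krt7* at 22.0 CPM, *Cldn4* at 67.0 CPM and *Cldn7* at 31.1 CPM, the last 2 coding for claudins of tight junctions. *Gja1*, the gap junction protein connexin 43 through which folliculostellate cells are coupled, was at 104.5 CPM. *Lhx3*, a homeobox factor of pituitary cells, was at 64.0 CPM. Of 6 macrophage genes, *Cd68* was at 345.0 CPM, a gene present in 31 of the 56 wells, and the other 5 were under 10 CPM.

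H2 was the deepest well. It carried *Krt18* at 342.5 CPM, *Krt8* at 110.6 CPM and *Sox9* at 52.3 CPM (657 counts), so its markers did not rest on few counts. Its hormones were mixed, in which *Pomc* (59274 CPM) came first, followed by *Cga* (41215 CPM), the subunit shared by LH, FSH and TSH, and by *Prl* (40662 CPM), while *Gh* (1014 CPM) and *Lhb* (378 CPM) were lower. *Vim* (vimentin) was at 186.4 CPM, *Rdh10*, which makes the substrate of the retinoic acid enzymes, at 207.1 CPM, and *Notch2* at 11.5 CPM.

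G7 carried *Krt18* at 78.8 CPM, *Anxa1* at 49.0 CPM and *Sox9* at 35.0 CPM, with *Krt8* at 2.23 CPM, and was the one well of the 9 without *Krt8*. *Prl* stood at 366756 CPM, and *Cga* and *Lhb* reached 11038 and 1490 CPM. These were 2 of 5 genes listed for gonadotropes, while *Fshb* and *Nr5a1* were at 0 and *Gnrhr* was at 0.223 CPM. *Cga* is also listed for thyrotropes. None of 12 further folliculostellate genes reached 10 CPM in G7, the only such well among the 9.

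D2 carried *Krt18* at 73.8 CPM, *Sox9* at 67.2 CPM (61 counts) and *Krt8* at 19.8 CPM. It had the highest *Gh* of the 9 wells, 82801 CPM, beside *Prl* at 127911 CPM. *Aldh1a3*, another enzyme of retinoic acid synthesis, was at 1025 CPM, *Hes1*, a target of Notch signalling, at 971.7 CPM, and the mitotic genes *Ccnb1* and *Top2a* at 27794 and 544.4 CPM, the highest of the 56 wells for *Aldh1a3*, *Ccnb1* and *Top2a*. *Mki67* and *Cdk1*, the other genes of that list, stayed under 10 CPM in every well. *Notch2*, *Jag1* and *Hey1* were at 0 in D2. Of 17 stem and progenitor genes 2 reached 10 CPM in D2, as did 1 of 12 further folliculostellate genes and 1 of 10 retinoid genes.

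E9 carried *Krt18* at 228.3 CPM, *Krt8* at 81.3 CPM and *Aldh1a2* at 43.0 CPM, with *Prl* at 152808 CPM and *Gh* at 35891 CPM. D3 carried *Krt18* at 206.7 CPM, *Krt8* at 36.4 CPM and *Aldh1a2* at 11.5 CPM (3 counts), with *Prl* at 227032 CPM, *Gh* at 23729 CPM and *Pomc* at 18658 CPM, and had the one value of *Gfap*, an intermediate filament protein of glia and of some folliculostellate cells, at 10 CPM or more (45.9 CPM, 12 counts). D3 also had 2 of 5 endothelial genes at 10 CPM or more, *Cdh5* at 88.0 CPM (23 counts) and *Pecam1* at 13.2 CPM. The third marker in D3 fell away with a minimum of 5 counts.

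H7 carried *Krt18* at 1345 CPM, *Krt8* at 321.0 CPM and *Cdh26* at 12.9 CPM, with *Prl* at 229817 CPM. Its epithelial genes were high, with *Krt7* at 1626 CPM and *Cdh1* at 308.0 CPM, both the highest of the 56 wells, and *Cldn3* at 301.0 CPM. *Cd9*, a tetraspanin of folliculostellate and other cells, was at 1874 CPM and *Crabp2*, which binds retinoic acid in the cell, at 958.6 CPM. Beside these, *Emcn*, a marker of endothelium, was at 2040 CPM, while the other 4 endothelial genes were under 10 CPM. H6, with 199803 gene counts and 42.0% of its counts in spike-ins, carried *Krt18* at 195.2 CPM, *Cdh26* at 125.1 CPM and *Krt8* at 22.5 CPM, with *Prl* at 293754 CPM. Its *Krt8* rested on 4.5 counts, so that H6, like D3, had fewer than 3 markers with a minimum of 5 counts. H6 also had 4 of 6 macrophage genes (*C1qa*, *C1qb*, *Tyrobp* and *Cd68*) and 3 of 5 endothelial genes at 10 CPM or more, where 1 count was worth about as much as 5 CPM in this well. Whether any of these wells held more than 1 cell was not tested.

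B3 had the most markers. It carried *Cdh26* at 176.5 CPM, *Krt18* at 109.5 CPM, *Krt8* at 57.0 CPM, *S100b* at 55.9 CPM and *Aldh1a2* at 15.6 CPM from 447616 gene counts, with *Prl* at 134050 CPM, *Gh* at 8409 CPM and *Pomc* at 4579 CPM. Of 12 further folliculostellate genes, 4 were at 10 CPM or more in B3 (*Slc1a3*, *Aldh1a1*, *Cd9* and *Gja1*). C8, F6 and H2 also had 4, H12 had 6, and the share of all protein-coding genes in B3 was 21%. *Slc1a3*, a glutamate transporter, was at 692.6 CPM and *Aldh1a1*, another retinoic acid enzyme, at 131.8 CPM, each the highest of the 56 wells. *Hes1* was at 156.4 CPM and *Gfra2*, a receptor subunit of the GDNF family, at 42.4 CPM. These were the 2 of 17 stem and progenitor genes that reached 10 CPM in B3. *Sox9* was at 0 in B3, as were the folliculostellate genes *Vim*, *Gfap*, *Fst*, *Mia*, *Rbpms*, *Cyp2f2* and *Fgf2*.

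B3 also had many genes found in no other well. At 10 CPM or more in B3 and in no other well were 525 protein-coding genes, the largest number of the 56 wells, where the next were D3 with 198, G2 with 157 and H2 with 122 and the median was 22.5. Among the 525 were *S100b*, *Aldh1a1* and *Gfra2*, and likewise *Sox10* (Schwann cells, 15.6 CPM), *Col3a1* (fibroblasts, 71.5 CPM) and *Cyp7a1* (the liver enzyme of bile acid synthesis, 189.9 CPM). One of 5 endothelial genes, 2 of 7 fibroblast genes, 1 of 6 macrophage genes and all 4 globin genes were at 10 CPM or more in B3, where the share of all protein-coding genes was 21%. When each of the 46 wells with enough depth was thinned to 100000 counts, B3 had the most genes, 7471, where the median was 4784 and the lowest 1948. *S100b* kept 4 counts and *Cdh26* 12 counts in B3 after thinning. The part of this breadth in the 5 markers of B3 was not tested. Without B3, 8 wells had 3 or more markers and *S100b* was present in none.

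**Figure D4:**
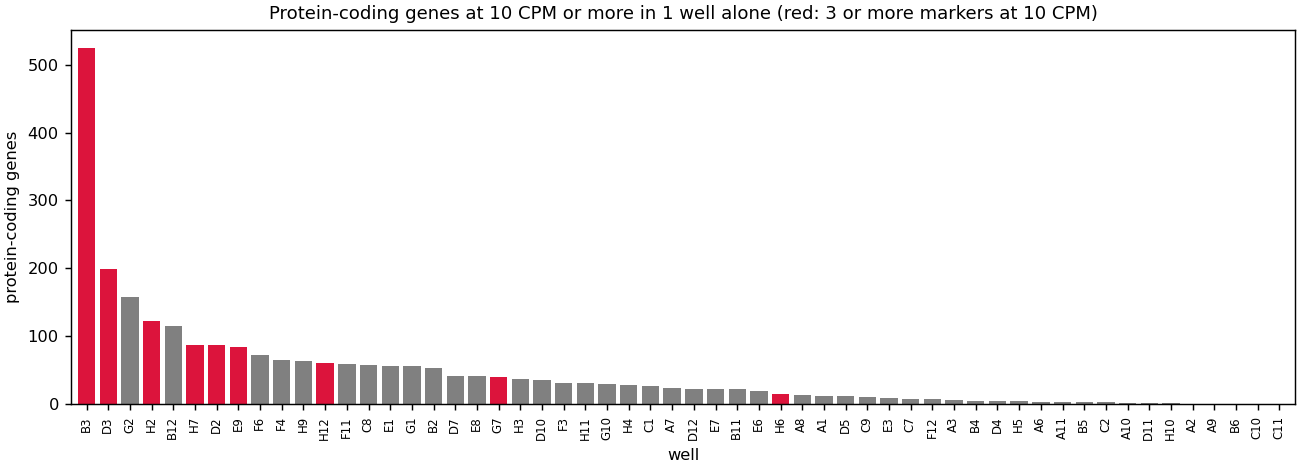
Number of protein-coding genes at 10 CPM or more in 1 well and in no other, for each of the 56 wells, with the 9 wells of 3 or more markers in red. B3 has 525 such genes, D3 follows with 198, and the median of the wells is 22.5.

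Genes that go with these markers were examined as lists. Of 17 stem and progenitor genes, 13 were at 10 CPM or more in some well. Among all protein-coding genes this held for 62.9%, the share to set beside this count and those of the lists below. Nothing is read from these counts. *Gfra3*, a receptor subunit of the GDNF family, had no count anywhere. *Ly6a* was present in 28 wells and *Pitx1*, which also serves in hormone cells, in 16. *Lhx3* was present in 8 wells, *Hes1* in 5, *Notch2* in 4 and *Jag1*, a Notch ligand, in 2. The 9 wells had from 1 to 5 of the 17 genes, where the range over all 56 wells was 0 to 5.

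Of 12 further folliculostellate genes, 10 were at 10 CPM or more in some well, and *Fst* (follistatin, which binds activin) had no count. *Cd9* was present in 37 wells and *Vim* in 26, while *Gja1* and *Mia* were present in 8 each, *Slc1a3* in 3, *Aldh1a1* in B3 alone and *Gfap* in D3 alone. The 9 wells had from 0 (G7) to 6 (H12) of these genes, and 6 was the highest of the 56 wells.

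Of 12 genes of simple epithelia, 11 were present in some well, and *Krt19* had no count. *Epcam*, an adhesion molecule of epithelia, was present in 52 wells, *Krt7* in 22, *Ocln* (occludin) in 11 and *Cdh1* in 5. The 9 wells had from 1 (G7) to 6 (H12) of them, and the range over all wells was 0 to 6. *Epcam* and *Krt18* were thus broad in these hormone-carrying wells, whereas *Krt19* was not seen.

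Of 10 genes of retinoid handling, 7 were present in some well. *Rdh10* was present in 9 wells, while *Aldh1a3* was present in 2, D2 and D3. D3 thus held both *Aldh1a2* (11.5 CPM) and *Aldh1a3* (337.6 CPM), B3 held *Aldh1a2* and *Aldh1a1*, and the 3 *Aldh1a* genes never met in 1 well at 10 CPM. Of 13 annexins, S100 proteins and the annexin A1 receptor *Fpr2*, 12 were present in some well and *Fpr2* had no count. Relatives of *Anxa1* and *S100b* differed in breadth. Some were far broader than those 2 genes, with *Anxa5* in 56 wells, *S100a11* in 55, *S100a10* in 54, *S100a1* in 50 and *Anxa2* in 48. Others were narrower, with *Anxa4* in 13 wells, *S100a13* in 12, *Anxa3* in 5 and *S100a4* in 3.

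For the 4 markers present in at least 5 wells, the genes whose log2(CPM + 1) followed the marker most closely were ranked by Pearson's r over 54 wells among 9468 genes. They were *Taf1d* (r = 0.61), *Cbfa2t2* (0.56) and *Gm26815* (0.55) for *Sox9*, *Tubg2* (0.57), *Aph1a* (0.55) and *Zkscan6* (0.55) for *Aldh1a2*, *2310040G24Rik* (0.60), *Tmem120b* (0.59) and *Gla* (0.56) for *Krt8*, and *Kidins220* (0.65), *Wdr74* (0.62) and *Dlg2* (0.60) for *Krt18*. No marker was among the 3 genes nearest to another marker. *Taf1d* was present in all 5 wells with *Sox9* and in 21 wells in all, and *Kidins220* was present in 32 wells, each of which had *Krt18*.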

How the data were processed

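The values are estimated counts that the authors deposited as a single table, with genes and ERCC spike-ins in rows and a column for each well. Their processing notes name STAR 2.5.1b, featureCounts 1.5.0-p1 and mm10, while the annotation release and strand setting are not given in the sources used here. Of the values above 0, 33.5% were not whole (tolerance 1e-09), and the protocol uses no molecular identifiers. Symbols, positions and exon lengths came from GENCODE M21 (46488 of 47069 identifiers matched). CPM was computed without the 92 spike-ins. No well was removed, and doublets were not called. Thinning rounded the counts first. Similar transcripts were sought with BLAST 2.17.0 (identity of at least 90% over at least 200 bases). Promoters came from RefSeq.

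The genes named were the 8 markers, 7 hormones, the 3 nearest genes by Pearson's r for each marker present in at least 5 wells, and fixed lists, of which some members are not reported here. The members, lists and limits were chosen with earlier results of these data known. Single wells, *Sox2ot*, the overlapping genes and the pseudogenes were named after their values or positions had been seen. Tests across groups were not possible with 1 sample. Alternatives changed the limit (1 CPM, 100 CPM, 1 count, 5 counts), the denominator, TPM, the depth, the wells, the number of markers and the measure of likeness. On simulated data of 8982 genes with 200 genes made to follow a marker at 32-fold, 100% of them were among the 200 nearest. The planted genes were given less noise than the other genes, so this checked the ranking code only. It does not bear on markers present in 5 wells, such as *Sox9* and *Aldh1a2*. Python 3.11.15, numpy 2.4.6, pandas 2.3.3, scipy 1.17.1 and matplotlib 3.10.9 were used.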

Additional observations from a re-analysis of the deposited data

How the results depend on the processing

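The number of wells with 3 or more markers, 9 at 10 CPM, was 20 at 1 CPM, 25 at 1 count or more and 0 at 100 CPM, and it was 29 with 2 or more markers, 2 with 4 or more and 1 with 3 or more of the 6 markers other than keratins. The sum over the 8 markers of the wells in which each was present, 89, was 45 at 100 CPM and 135 at 1 count or more. Wells with both keratins, 25, were 7 at 100 CPM and 42 at 1 count or more. Of the 12 genes nearest to a marker, 6 were kept with Spearman's rho and 7 with a pseudocount of 0.1. Under the other 46 settings of these results, and of the share of wells with 3 or more markers in which the 3 hormones took at least 10% of gene counts (100% of 9 wells, lowest 87.5% after thinning, with H2 just inside at 10.1%, and 89.3% of all 56 wells, so that this share says little about the marker wells), the value stayed within 1.5 times the main value. Among them, a minimum of 5 counts gave 7 wells with 3 or more markers, TPM 7, spike-ins in the denominator 8, hormones left out of it 10 (with H3 added), thinning to 100000 counts 8 of 46 wells (7 of them among the 9), and leaving out the 6 wells with the most genes 6. At 100 CPM no well had 3 markers, so no hormone share was available there. The sum of 89 hides changes in single markers. Their counts moved beyond 1.5 times the main value, or to 0, in 17 combinations of marker and setting and did not in 87. With the 6 gene-richest wells left out, *Cdh26* fell from 4 wells to 2 and *Aldh1a2* from 5 to 3. *S100b* then fell from 1 to 0 and *Sox9* from 5 to 4, and *Anxa1* stayed at 2. At 1 CPM *Aldh1a2* was present in 15 wells. Leaving out B3 was chosen after seeing the data. No paired analysis was possible because the labels describe 1 kind of culture, number the cells only, and give no groups to pair. Depth limits the absences: in 21 wells 3 counts were worth more than 10 CPM.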
